A study of Homo sapiens with 29 samples.

Results

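SMARCA4 and SMARCA2 are the alternative ATPases of the SWI/SNF chromatin remodelling complex, and their RNA was measured in fibroblasts before and after oncogene-induced senescence (OIS), with and without SMARCA4 knockdown. The members are these 2 genes of the 28266 in the count table, taken by symbol. Both passed the filter on low counts, which kept 13136 genes. The cells were IMR90 ER:RAS, an established human lung fibroblast line that carries a retrovirally delivered fusion of the estrogen receptor hormone-binding domain with oncogenic RAS. By their labels all groups carry the fusion, and all received an siRNA by reverse transfection 1 day before treatment and were collected on day 7. DMSO_siNT cells received the solvent and non-targeting siRNA (siNT) and were growing, 4OHT_siNT cells received 4-hydroxytamoxifen (4OHT), which activates the fusion and drives senescence, and 4OHT_siSMARCA4 cells received 4OHT and an siRNA against SMARCA4. Each group held 6 libraries, 3 with siRNA number 2 and 3 with siRNA number 4, so SMARCA4 is also the targeted gene and SMARCA2 is its untargeted paralog. The labels do not say that the libraries of a group came from separate cultures, so p-values measure the spread between these libraries, which may be technical.

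SWI/SNF complexes slide and evict nucleosomes with the energy of ATP. Each complex holds a single ATPase, either SMARCA4 (also called BRG1) or SMARCA2 (also called BRM), and the ATPases share most of their partner subunits. The complexes are known for opening enhancers and promoters and for roles in differentiation and cell cycle exit. SMARCA2 is often abundant in differentiated cells, and cancers that have lost SMARCA4 can come to depend on SMARCA2.

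Because the paralogs are alike, their sequences are shown first, to make clear how far a read or an siRNA could fall on both. SMARCA4 lies on chromosome 19, 10960932 to 11079426, plus strand, and SMARCA2 on chromosome 9, 1980290 to 2193624, plus strand (GRCh38, GENCODE version 44). The coding sequence of the MANE transcript, the reference transcript chosen for each gene, was 4941 bases over a transcript of 35 exons for SMARCA4 and 4770 bases over a transcript of 34 exons for SMARCA2. Of 4664 coding positions aligned without a gap, 74.5% were identical. The most alike stretch of 60 coding bases had 55 identical positions. It is given here for both genes 5′ to 3′, with the 5 differing bases in capitals:
SMARCA4: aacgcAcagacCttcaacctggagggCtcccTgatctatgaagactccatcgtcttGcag
SMARCA2: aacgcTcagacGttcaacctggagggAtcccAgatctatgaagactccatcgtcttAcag
The SMARCA4 copy is spliced from exons 32 and 33 (chromosome 19, between 11058857 and 11059779), and the SMARCA2 copy from exons 31 and 32 (chromosome 9, between 2182210 and 2186122).

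No stretch of 72 bases, the read length, was found in transcripts of both genes, so a full-length read that matched its source exactly could not be assigned to the paralog. Stretches as short as an siRNA were shared. Of 4923 windows of 19 bases in the SMARCA4 coding sequence, 32 (0.65%) were also in that of SMARCA2, and they formed 7 runs of 19 to 26 bases. The longest shared runs were 26 bases, and the whole of each run is identical between the genes:
Run in SMARCA4 exon 26 and SMARCA2 exon 25: caccgcatcgggcagcagaacgaggt
Run in SMARCA4 exon 8 and SMARCA2 exon 7: gagaagctggagaagcagcagaagat
The first of these lies at chromosome 19, 11033314 to 11033339, and at chromosome 9, 2115846 to 2115871. The second lies at chromosome 19, 10991264 to 10991289, and at chromosome 9, 2056786 to 2056811. The sequences of siSMARCA4_2 and siSMARCA4_4 were not used here, so whether either covers a shared run was not tested. Of 5506 windows of 72 bases in the SMARCA4 MANE transcript, 31 were also in ENSG00000278643, a small RNA annotated inside the gene, and none of the 5677 windows of SMARCA2 were in another gene. An antisense long non-coding RNA, ENSG00000266936, spans a MANE exon of SMARCA4, and SMARCA2-AS1 overlaps the SMARCA2 gene but none of its MANE exons. The sources used here do not state whether counting used strand.

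Total counts per library ranged from 9657309 to 18039313. Fibroblast markers were present in all libraries (COL1A1 at 1430 to 15300 CPM, counts scaled by library total), while EPCAM, CDH1, PTPRC, CD3E, PECAM1 and CDH5, markers of epithelium, leukocytes and endothelium, were at most 1.86 CPM. KRT8 (5.51 to 17.2 CPM), KRT18 (27.7 to 77.6), CD68 (47.2 to 76.1) and VWF (1.05 to 4.93) of the same lists were detected in every library. The fibroblast markers LUM (median 23.7 CPM) and DCN (17.3) went down to 7.2 CPM. The summed fibroblast markers were lower in every 4OHT_siSMARCA4 library (8850 to 12900 CPM) than in any 4OHT_siNT library (15100 to 19000), with DMSO_siNT at 9990 to 33000, and the summed epithelial markers likewise (33.4 to 56.9 against 58.5 to 77.2, with DMSO_siNT at 57.5 to 95.6). The summed endothelial markers were low but higher in every 4OHT_siNT library (3.93 to 4.87 CPM) than in any DMSO_siNT library (1.26 to 2.09). Their part in the results was not tested. Some libraries stood apart from their labels or their group. The DMSO_siNT library 4-2V (siRNA 4, set 2V) had the lowest total, 9657309, and 29.5 CPM of ESR1, which reads the estrogen receptor part of the fusion, against 1034 to 1316 CPM in the other 5 DMSO_siNT libraries. Whether its cells carried the fusion was not tested, and it is kept under its label, with values without it where a call depends on it. One 4OHT_siSMARCA4 library with siRNA 2 carried a set name that matched no sample title and is called the unlabelled library. The set letters V and VM, whose meaning is not given, were also uneven. All 4OHT_siNT libraries were VM, DMSO_siNT had 3 V and 3 VM, and 4OHT_siSMARCA4 had 3 V, 2 VM and the unlabelled one. The column name of the unlabelled library also holds the letters VM, but that library is counted in neither set here.

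SMARCA4 rose with senescence and fell to less than its growing level after knockdown, whereas SMARCA2 fell at both steps. SMARCA4 was at 217 ± 15.3 CPM in DMSO_siNT, 301 ± 20.9 CPM in 4OHT_siNT and 99.0 ± 27.6 CPM in 4OHT_siSMARCA4 (SD, n = 6 each, scaled by the trimmed mean of M-values, TMM). SMARCA2 was at 43.1 ± 6.81, 30.3 ± 3.43 and 20.3 ± 2.75 CPM in the same groups. The order of the groups therefore differed between the paralogs, with 4OHT_siNT highest for SMARCA4 and DMSO_siNT highest for SMARCA2. In the plot of levels by library, the neighbouring groups did not overlap for SMARCA4, and for SMARCA2 only DMSO_siNT and 4OHT_siNT overlapped. In bulk RNA, fewer cells of a type and less RNA per cell cannot be told apart.

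**Figure D1:**
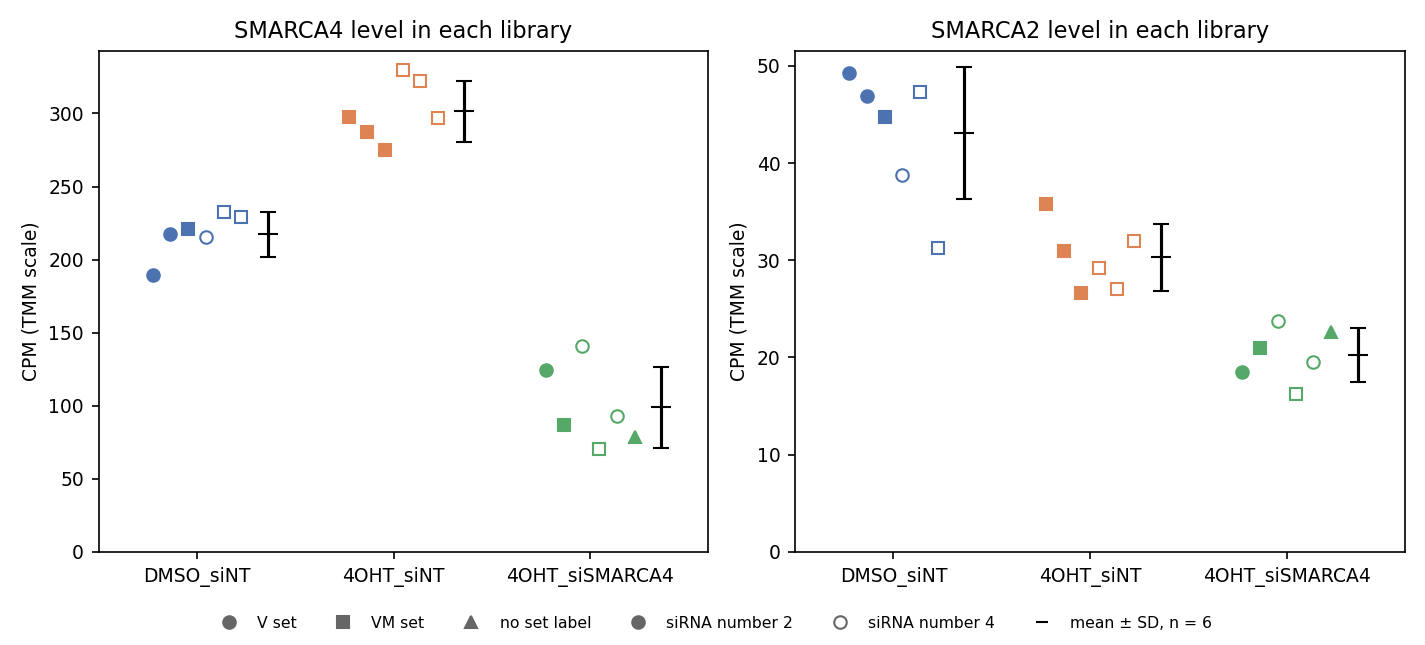
SMARCA4 (left) and SMARCA2 (right) in CPM on the TMM scale, 1 point per library, by group. Circles are V sets, squares VM sets and the triangle the unlabelled library, filled points siRNA number 2 and open points siRNA number 4, and black bars the mean ± SD (n = 6). SMARCA4 is highest in 4OHT_siNT and SMARCA2 in DMSO_siNT, and both are lowest in 4OHT_siSMARCA4.

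Whether the ATPases differ with senescence was asked by comparing 4OHT_siNT with DMSO_siNT. SMARCA4 in DMSO_siNT was 189 CPM in the lowest library (2-1V), 219 at the median and 232 in the highest (4-2VM), and in 4OHT_siNT it was 275, 297 and 329.9 CPM. Every senescent library was above every growing one. SMARCA4 was up-regulated by 0.47 ± 0.14 on the log2 scale (SE), to 139% of its growing level (adjusted p = 0.00769, edgeR's quasi-likelihood test with Benjamini-Hochberg adjustment over all genes tested). Within VM sets alone, 6 libraries against 3, the log2 change was 0.41 (edgeR adjusted p = 0.00179).

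SMARCA2 moved the other way. Its levels in the DMSO_siNT libraries were 49.3 CPM (2-1V), 46.9 (2-2V), 44.8 (2-2VM), 38.7 (4-2V), 47.3 (4-2VM) and 31.3 (4-3VM). In 4OHT_siNT they ran from 26.7 CPM through a median of 30.1 to 35.8. The groups overlapped through a single growing library, 4-3VM, which lay inside the senescent range, while the next lowest, 4-2V, lay above it. SMARCA2 was down-regulated by 0.51 ± 0.12 on the log2 scale, leaving 70.3% (edgeR adjusted p = 0.00169). The fall was 0.44 within VM sets (edgeR adjusted p = 0.0117) and 0.53 without DMSO_siNT 4-2V (edgeR adjusted p = 0.000539).

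These calls stand on a background in which many genes changed. Between 4OHT_siNT and DMSO_siNT, 52.8% of 13136 genes were called, 23.9% higher and 28.9% lower, and the groups did not overlap for 33.8%. Both paralogs were called, 1 in each direction, and the groups of 1 of them did not overlap. SMARCA4 was not called with the libraries of siRNA 4 alone (log2 change 0.52, edgeR adjusted p = 0.116, 3 libraries a group), nor was SMARCA2 (−0.38, edgeR adjusted p = 0.165). DMSO_siNT 4-2V is among the siRNA 4 libraries. With siRNA 2 alone, also 3 libraries a group, SMARCA4 (0.46, edgeR adjusted p = 0.01285) and SMARCA2 (−0.58, edgeR adjusted p = 0.000915) were called.

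The knockdown comparison, 4OHT_siSMARCA4 against 4OHT_siNT, first checks the targeted gene. SMARCA4 in the knockdown libraries was 125 CPM (2-3V), 87.0 (2-3VM), 78.8 (the unlabelled library), 141 (4-2V), 70.4 (4-2VM) and 92.7 (4-3V). All of these lay below the lowest 4OHT_siNT library. For SMARCA4 counting error was small beside these steps, with a 95% Poisson interval of 65.6 to 75.4 CPM in 4-2VM, which had the fewest counts of both genes. For SMARCA2 the interval in that library was 14.0 to 18.7 CPM. These intervals cover counting error only. Set against the 4OHT_siNT mean, the remaining SMARCA4 was 23.3% in the most and 46.7% in the least depleted library. The log2 change was −1.61 ± 0.14 and left 32.9% (edgeR adjusted p = 1.3e-06). The knockdown was therefore partial in every library. The remaining SMARCA4 level varied more than the level in DMSO_siNT or 4OHT_siNT, with an SD of 27.6 CPM against 15.3 and 20.9. Relative to the lower mean, its coefficient of variation was 27.9% against 7.02% and 6.94%.

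SMARCA2, which the siRNAs did not name as their target, was also lower. Its level was 18.5 CPM (2-3V), 20.9 (2-3VM), 22.6 (the unlabelled library), 23.7 (4-2V), 16.2 (4-2VM) and 19.5 (4-3V). The groups did not overlap, since the highest knockdown library was under the lowest 4OHT_siNT library, 26.7 CPM. SMARCA2 was down-regulated by 0.58 ± 0.12 on the log2 scale, leaving 67.0% (edgeR adjusted p = 0.0048). The library with the most SMARCA2, 4-2V, also had the most SMARCA4, and 4-2VM had the least of both, whereas 2-3V was next to the highest in SMARCA4 and next to the lowest in SMARCA2. The SMARCA2 intervals of 2-3V (16.2 to 21.0 CPM) and 4-3V (17.1 to 22.2 CPM) overlapped, so their order was not separated from counting error.

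Against this, 10.6% of genes were called between 4OHT_siSMARCA4 and 4OHT_siNT, 4.99% higher and 5.65% lower, and the groups did not overlap for 11.4%. Both paralogs were called lower, and for both the groups did not overlap. Within VM sets, 2 libraries against 6, the log2 change was −1.95 for SMARCA4 (edgeR adjusted p = 4.22e-07) and −0.72 for SMARCA2 (edgeR adjusted p = 0.00765). Without the unlabelled library they were −1.56 (edgeR adjusted p = 7.62e-06) and −0.62 (edgeR adjusted p = 0.00706). With the libraries of siRNA 4 alone neither was called (edgeR adjusted p = 0.0925 for SMARCA4 and 0.359 for SMARCA2), in a fit of 3 libraries a group that called 4 genes in all. The fit of siRNA 2 alone, also 3 libraries a group, called 3429 genes. SMARCA4 (−1.57, edgeR adjusted p = 2.18e-05) and SMARCA2 (−0.60, edgeR adjusted p = 0.00366) were among them.

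How the depleted senescent cells stood to growing cells was read from 4OHT_siSMARCA4 against DMSO_siNT. SMARCA4 was lower by 1.13 ± 0.14 on the log2 scale and SMARCA2 by 1.09 ± 0.12, so 45.6% and 47.1% of the growing level was left. Both falls were called (edgeR adjusted p = 1.26e-06 and 4.11e-07), and neither gene had overlapping groups. In this comparison 50.5% of genes were called, 23.3% higher and 27.3% lower, and 29.6% did not overlap. Within VM sets, 2 libraries against 3, the log2 changes were −1.54 (edgeR adjusted p = 1.51e-07) and −1.15 (edgeR adjusted p = 0.000123). This comparison shares its libraries with the other ones, so it adds no separate evidence.

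The balance of the paralogs was measured within each library as the ratio of their counts, which no scaling between libraries can change. There were 5.2 ± 1.18 SMARCA4 counts for each SMARCA2 count in DMSO_siNT, 10.1 ± 1.37 in 4OHT_siNT and 4.90 ± 1.21 in 4OHT_siSMARCA4 (SD, n = 6). The 4OHT_siNT libraries, at 8.30 to 11.9, lay above all others, and the growing (3.84 to 7.31) and depleted (3.48 to 6.73) libraries overlapped. The log2 ratio was higher by 0.97 in 4OHT_siNT than in DMSO_siNT (exact two-sided permutation test, p = 0.00216, adjusted p = 0.0026 over 6 tests). It was lower by 1.06 in 4OHT_siSMARCA4 than in 4OHT_siNT (exact permutation p = 0.00216, adjusted p = 0.0026). Both p-values are the smallest that 6 libraries against 6 can give. SMARCA4 is the targeted gene, so the knockdown test of the ratio is tied to its fall and adds no separate evidence for that fall.

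Between the depleted and the growing cells the log2 ratio differed by −0.10, less than its SD of 0.35 and 0.31 in these groups (exact permutation p = 0.623). The value depended on the libraries compared. It was −0.41 in VM sets, 2 libraries against 3 (exact permutation p = 0.3, where 0.1 is the smallest possible), and 0.01 without the DMSO_siNT library 4-3VM (exact permutation p = 0.983). In VM sets the ratio differed by 0.83 with senescence (exact permutation p = 0.0119) and by −1.24 with knockdown (exact permutation p = 0.0357), each the smallest p those sizes allow.

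The summed ATPase level, CPM per kb of annotated exons for both genes together, gives the RNA available for either ATPase on a scale corrected for length. It was 16.2 ± 0.881 CPM per kb in DMSO_siNT, 20.9 ± 1.33 in 4OHT_siNT and 7.42 ± 1.84 in 4OHT_siSMARCA4 (SD, n = 6), with no overlap between any of the groups. The sum was 1.29-fold higher in 4OHT_siNT than in DMSO_siNT, and after knockdown it was 0.346 of the 4OHT_siNT level and 0.447 of the DMSO_siNT level. Each difference had an exact permutation p of 0.00216, the smallest possible (adjusted p = 0.0026 over 6 tests). SMARCA4, the targeted gene, made up 92.4% of the sum in 4OHT_siNT, so the tests of the sum largely repeat its own change and add no separate evidence. For the pair 4OHT_siSMARCA4 and DMSO_siNT within VM sets, 2 libraries against 3 cannot reach 0.05, and the exact permutation p was 0.1, the smallest it allows.

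**Figure D2:**
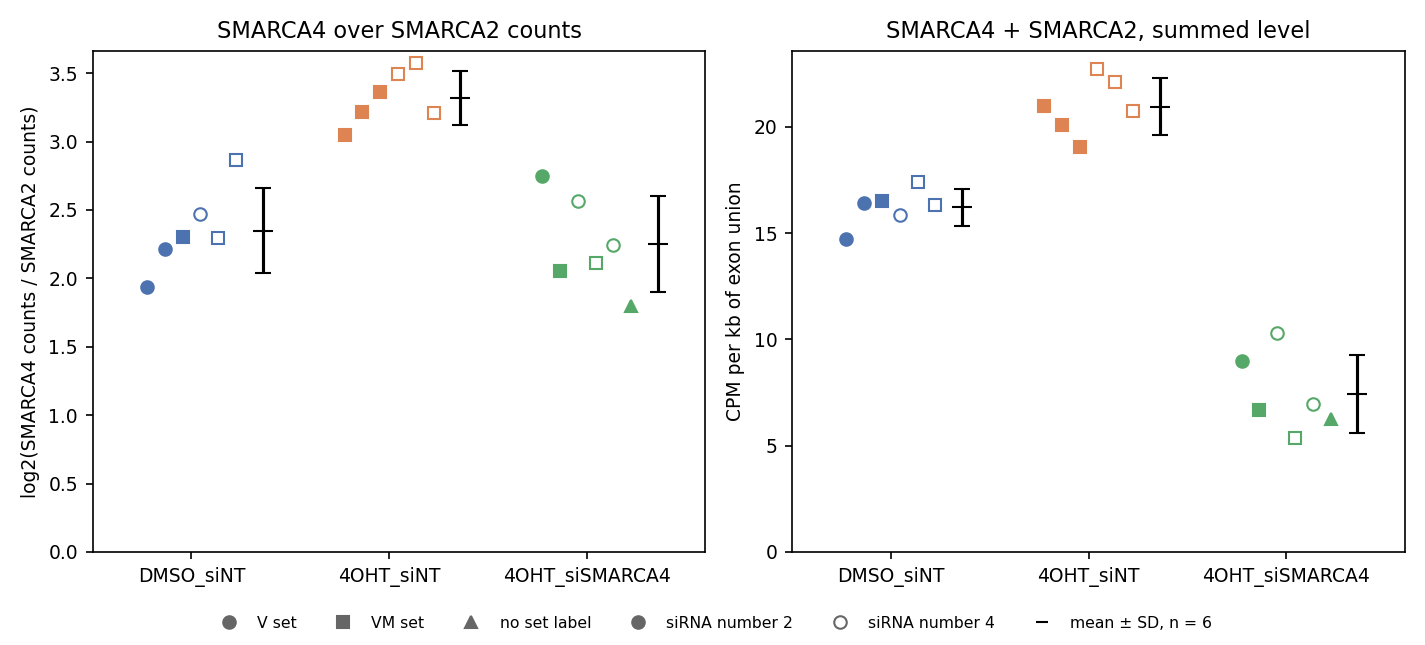
Left, the log2 ratio of SMARCA4 to SMARCA2 counts, and right, the summed level of both genes in CPM per kb of annotated exons, 1 point per library, with the mean ± SD (n = 6) in black and symbols for set letters and siRNA number as in the key. The ratio in 4OHT_siNT lies above both other groups, which overlap each other, whereas the summed level separates all 3 groups.

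On this length-corrected scale SMARCA4 was the major ATPase RNA everywhere. It made up 86.0 ± 2.47% of the sum in DMSO_siNT, 92.4 ± 0.953% in 4OHT_siNT and 85.2 ± 2.99% in 4OHT_siSMARCA4. Annotated exons include retained introns and rarely used ends, 15581 bases for SMARCA4 and 19075 for SMARCA2, so the share was also taken over the MANE transcripts of 5577 and 5748 bases, a choice made after seeing the data. It was then 83.8 ± 2.79%, 91.1 ± 1.10% and 82.9 ± 3.36%. The lowest share in any library, 78.2%, was in the unlabelled library.

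The siRNAs numbered 2 and 4 were compared in a fit with 1 level per group and siRNA (13659 genes tested). SMARCA4 averaged 96.8 ± 24.4 CPM with siSMARCA4_2 and 101 ± 35.96 CPM with siSMARCA4_4 (SD, n = 3), and SMARCA2 averaged 20.7 ± 2.07 and 19.8 ± 3.75 CPM. Each siRNA held a deeply and a less deeply depleted library. The log2 difference between the siRNAs was −0.05 ± 0.21 for SMARCA4 (edgeR adjusted p = 0.98) and 0.07 ± 0.17 for SMARCA2 (edgeR adjusted p = 0.973), where 0.00732% of genes, a single gene, were called. Without the unlabelled library the SMARCA4 difference was 0.07 (edgeR adjusted p = 0.997).

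Against the siNT of the same number, SMARCA4 fell by 1.56 ± 0.21 with siSMARCA4_2 (edgeR adjusted p = 0.000287) and by 1.66 ± 0.21 with siSMARCA4_4 (edgeR adjusted p = 0.000772). SMARCA2 fell by 0.59 ± 0.17 with siSMARCA4_2 (edgeR adjusted p = 0.0443). With siSMARCA4_4 its log2 change was of nearly the same size, −0.58 ± 0.17, but did not pass (edgeR adjusted p = 0.0759). The share of genes called was 7.67% for siSMARCA4_2 and 2.71% for siSMARCA4_4, so the same size of change met a different adjustment. The knockdown effects of the siRNAs differed by 0.09 ± 0.29 for SMARCA4 (edgeR adjusted p = 0.988) and by −0.01 ± 0.24 for SMARCA2 (edgeR adjusted p = 0.998), with 0.0146% of genes, 2 in number, called. Without the unlabelled library the SMARCA2 change with siSMARCA4_2 was −0.66 and did not pass (edgeR adjusted p = 0.0811), and by DESeq2 the change with siSMARCA4_4 passed (−0.59, adjusted p = 0.0238).

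The siNT controls with the numbers 2 and 4 did not differ in either gene beyond the spread. In 4OHT the log2 difference of siNT 2 over siNT 4 was −0.15 ± 0.20 for SMARCA4 (edgeR adjusted p = 0.872) and 0.08 ± 0.17 for SMARCA2 (edgeR adjusted p = 0.926), with 0.0732% of genes called. In DMSO it was −0.11 ± 0.20 for SMARCA4 (edgeR adjusted p = 0.727) and 0.26 ± 0.17 for SMARCA2 (edgeR adjusted p = 0.306), with 0.0512% of genes called. The DMSO libraries with siNT 4 hold the low SMARCA2 values of 4-2V and 4-3VM named above.

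The remaining SMARCA4 was also compared between the V and VM libraries of 4OHT_siSMARCA4. The V libraries had 92.7, 125 and 141 CPM of SMARCA4 and the VM libraries had 70.4 and 87.0 CPM. The unlabelled library, whose column name holds the letters VM, had 78.8 CPM and was left out of this comparison. The log2 difference of V over VM was 0.59 ± 0.17. It had an unadjusted p of 0.00344 and did not pass in edgeR (adjusted p = 0.247), where 0.101% of 13887 genes were called, whereas it passed in DESeq2 (0.61, adjusted p = 0.0348). SMARCA2 differed by 0.14 ± 0.20 (edgeR adjusted p = 0.962). In DMSO_siNT, with 0.324% of genes called, V over VM was −0.15 ± 0.15 for SMARCA4 (edgeR adjusted p = 0.628) and 0.12 ± 0.18 for SMARCA2 (edgeR adjusted p = 0.762). Since 4OHT_siNT had no V library, the knockdown comparison could not be made within V sets.

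Within a group the paralogs showed no relation that these 6 libraries could establish. Pearson's r of their log2 CPM was −0.43 in DMSO_siNT (exact permutation p = 0.362), −0.09 in 4OHT_siNT (exact permutation p = 0.864) and 0.44 in 4OHT_siSMARCA4 (exact permutation p = 0.39). Spearman's rho was −0.26, 0.14 and 0.43 (exact permutation p = 0.658, 0.803 and 0.419). After adjustment over the 3 groups the smallest p was 0.586 for r and 0.803 for rho. Leaving out the 2 libraries farthest from the median of SMARCA4 gave an r of −0.70, 0.93 and 0.52, so the value in 4OHT_siNT rested on 2 libraries. The scatter of the paralogs shows the groups as separate clusters, so no r over all libraries is given as a relation.

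**Figure D3:**
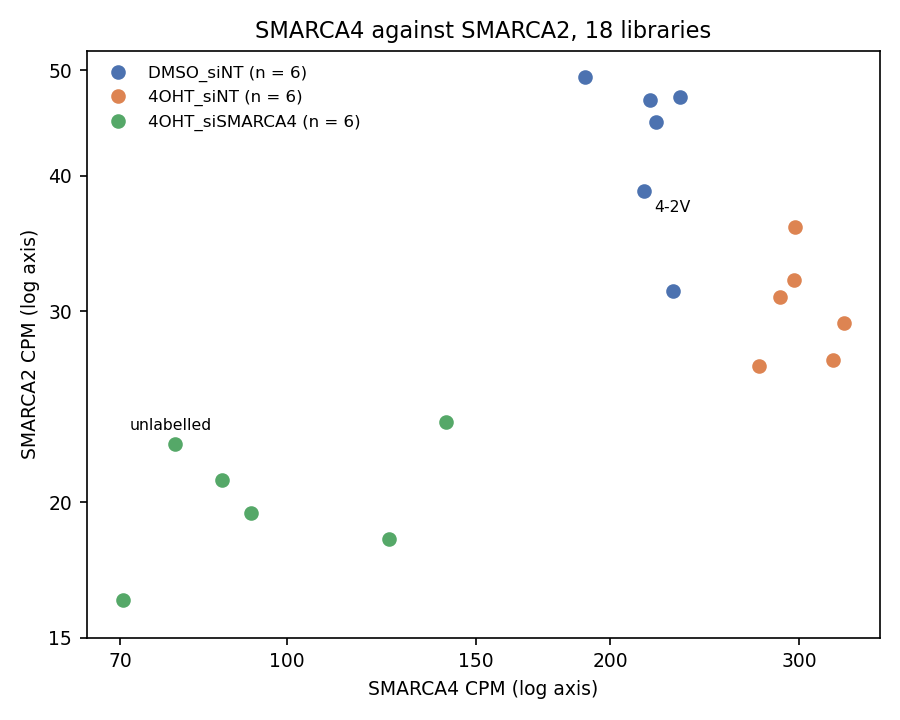
SMARCA4 against SMARCA2 in CPM, both axes logarithmic, 1 point per library and 1 colour per group (n = 6 each), with DMSO_siNT 4-2V and the unlabelled library named. The groups form separate clusters, with SMARCA4 increasing and SMARCA2 decreasing from DMSO_siNT to 4OHT_siNT, and both lower in 4OHT_siSMARCA4.

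The partners of the ATPases were taken as a list of 26 SWI/SNF subunit genes, of which 25 were tested and ACTL6B had 0 counts in every library. With senescence, edgeR called 4 subunits higher and 11 lower, where 23.9% and 28.9% of all genes were. The median log2 change of the 25 subunits was −0.19, beside −0.05 over all genes tested. The higher ones were SS18L1 (0.78, edgeR adjusted p = 9.91e-05), a paralog of the SS18 subunit, PHF10 (0.73, edgeR adjusted p = 0.00278), which belongs to the PBAF form of the complex, SMARCD2 (0.45, edgeR adjusted p = 0.00999) and DPF2 (0.35, edgeR adjusted p = 0.00383). The largest fall was in DPF3, a histone-binding subunit, whose median went from 18.65 CPM (range 13.5 to 25.3) to 6.60 (5.94 to 8.60), a log2 change of −1.51 ± 0.15 (edgeR adjusted p = 7.74e-08). Its groups did not overlap. So 15 of 25 subunits were called, where 52.8% of all genes were, and 4 were called higher, as SMARCA4 was, where 23.9% of all genes were. Without DMSO_siNT 4-2V, 17 subunits were called in place of 15, and without the unlabelled library 13 were, whereas siRNA 4 alone gave 7. SMARCD2 was not called with siRNA 4 alone or under total-count scaling, nor DPF2 with siRNA 2 alone.

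After knockdown, 2 of 25 subunits were called, where 10.6% of all genes were. Of these 1 was lower, as the ATPases were. SMARCC2, a core scaffold subunit, had a median of 67.8 CPM (range 62.8 to 75.7) in 4OHT_siSMARCA4 and 88.7 (71.9 to 100.2) in 4OHT_siNT, and was called lower by 0.35 ± 0.10 (edgeR adjusted p = 0.0343). DPF3 was called higher by 0.48 ± 0.15 (edgeR adjusted p = 0.0468), from a median of 6.60 to 9.79 CPM, the opposite of its change with senescence. Both pairs of groups overlapped. SMARCC2 kept its call in 17 of 29 alternatives and DPF3 in 12. The median change over the 25 subunits was −0.01, beside 0.01 over all genes tested. Without the unlabelled library no subunit was called, and 923 genes were in all, in place of 1397. Without DMSO_siNT 4-2V, which is in neither arm but enters the shared estimate of spread, 5 subunits and 3269 genes in all were called. Against DMSO_siNT, 2 of 25 subunits were called higher in 4OHT_siSMARCA4 and 7 lower, where 23.3% and 27.3% of all genes were. The higher ones were SS18L1 (0.78, edgeR adjusted p = 9.81e-05) and SS18 (0.32, edgeR adjusted p = 0.00464). Of the lower ones SMARCD3 fell most (−1.28 ± 0.14, edgeR adjusted p = 2.85e-07). The median change was −0.13 over the list beside −0.04 over all genes.

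**Figure D4:**
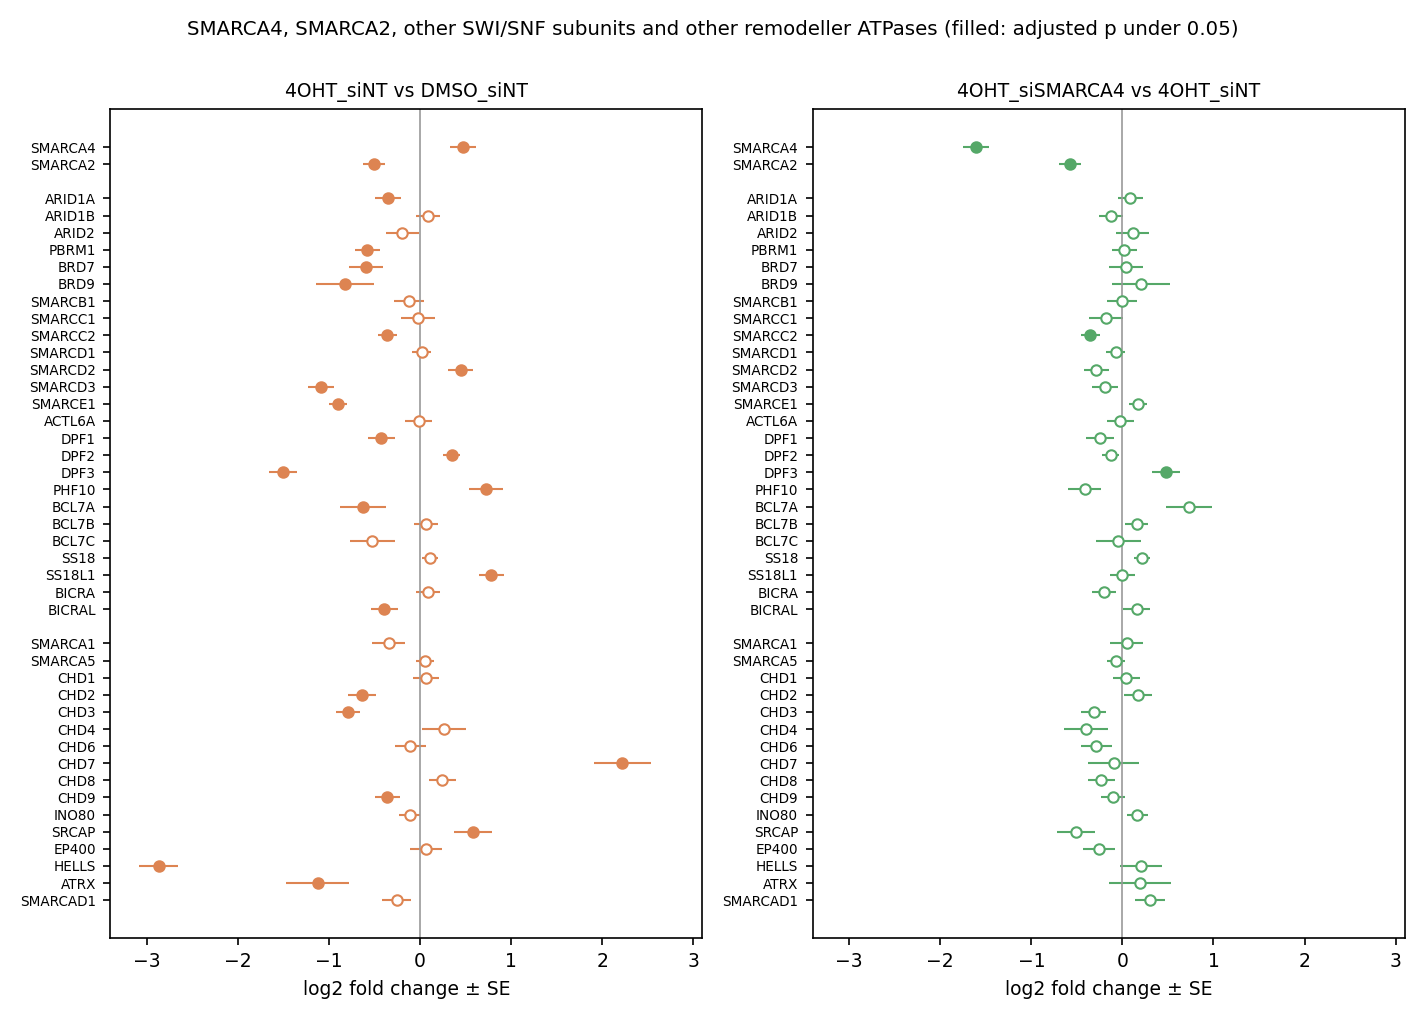
Log2 fold change ± SE from edgeR for SMARCA4 and SMARCA2 (top), 25 SWI/SNF subunits (middle) and 16 other remodeller ATPases (bottom), for 4OHT_siNT against DMSO_siNT (left) and 4OHT_siSMARCA4 against 4OHT_siNT (right), with filled points at an adjusted p under 0.05. SMARCA4 and SMARCA2 have opposite signs on the left and the same sign on the right, where few other points are filled.

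Other remodellers use related ATPases, and 16 of them, from the ISWI, CHD, INO80 and further families, were all tested. With senescence, 2 were called higher and 5 lower, where 23.9% and 28.9% of all genes were, and their median log2 change was −0.11 beside −0.05 over all genes. CHD7, a CHD-family remodeller, was 0.911 CPM at the median (range 0.247 to 2.15) in DMSO_siNT and 4.22 (3.94 to 6.08) in 4OHT_siNT, a log2 change of 2.22 ± 0.32 without overlap (edgeR adjusted p = 8.08e-06). HELLS, a remodeller linked to DNA methylation, fell from 10.4 CPM (8.43 to 12.7) to 1.61 (0.781 to 1.92), a log2 change of −2.87 ± 0.21 without overlap (edgeR adjusted p = 1.44e-09). SRCAP, the ATPase that deposits the histone variant H2A.Z, was the other one higher (0.58, edgeR adjusted p = 0.0258), but was not called with siRNA 2 alone (0.13, edgeR adjusted p = 0.467), under total-count scaling, without 4OHT_siNT 4-2VM or without DMSO_siNT 4-3VM. The other falls were CHD3 (−0.79, edgeR adjusted p = 7.37e-05), CHD2 (−0.64, edgeR adjusted p = 0.00177), CHD9 (−0.36, edgeR adjusted p = 0.0327) and ATRX. The value for ATRX, a heterochromatin remodeller, depended on DMSO_siNT 4-2V, at 699 CPM against 116 to 170.2 in the other growing libraries. Its log2 change was −1.12 with that library and −0.42 without it (edgeR adjusted p = 0.0102 and 0.00933). With siRNA 2 alone ATRX was not called (−0.13, edgeR adjusted p = 0.27). CHD9 kept its call in 17 of 29 alternatives. Among others it lost the call without DMSO_siNT 4-2V (−0.25, edgeR adjusted p = 0.072), in VM sets (−0.15, edgeR adjusted p = 0.279) and with either siRNA number alone.

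After knockdown, 0 of the 16 were called by edgeR, where 10.6% of all genes were, and 0 by DESeq2. By edgeR, 2 had an unadjusted p under 0.05, both lower. The median log2 change of the 16 was −0.08, beside 0.01 over all genes. Without DMSO_siNT 4-2V, 3 were called, and without 4OHT_siSMARCA4 4-2V, 1 was. Against DMSO_siNT, 1 of the 16 was called higher in 4OHT_siSMARCA4 and 5 lower, where 23.3% and 27.3% of all genes were. The higher one was CHD7 (2.12 ± 0.32, edgeR adjusted p = 1.28e-05). The lower ones were HELLS (−2.66 ± 0.21, edgeR adjusted p = 2.94e-09), CHD3 (−1.11 ± 0.14, edgeR adjusted p = 1.33e-06), ATRX, CHD2 (−0.47, edgeR adjusted p = 0.0157) and CHD9 (−0.46, edgeR adjusted p = 0.008). CHD2 was not called in VM sets (−0.13, edgeR adjusted p = 0.483) or with siRNA 2 alone (−0.18, edgeR adjusted p = 0.227). ATRX again rested on 4-2V, with −0.93 (edgeR adjusted p = 0.0294) and, without that library, −0.24 (edgeR adjusted p = 0.125). The median of the list was −0.16, beside −0.04 over all genes.

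Among the 18 ATPases as a family, ordered by CPM per kb of MANE transcript, a length taken after seeing the data, SMARCA4 was near the top and SMARCA2 in the middle or below. SMARCA4 ranked 3 of 18 in DMSO_siNT (38.98 ± 2.74 CPM per kb), 2 in 4OHT_siNT (54.1 ± 3.75) and 3 in 4OHT_siSMARCA4 (17.8 ± 4.95). In DMSO_siNT its range of 33.9 to 41.7 lay inside those of CHD4 (31.2 to 110.1) and SMARCA1 (33.2 to 84.5), the genes above it, so its order among these was not separated. In 4OHT_siNT its range of 49.3 to 59.2 lay inside that of CHD4, the first (48.2 to 68.3), and above that of SMARCA1, the next (31.2 to 37.95). After knockdown its range of 12.6 to 25.2 took in that of SMARCA5 (14.8 to 16.4), the next below, and stayed under that of SMARCA1 (26.98 to 42.3).

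SMARCA2 ranked 9 in DMSO_siNT (7.49 ± 1.18 CPM per kb), 11 in 4OHT_siNT (5.27 ± 0.597) and 15 in 4OHT_siSMARCA4 (3.53 ± 0.478). Its neighbours overlapped it in each group. They were CHD2 and SMARCAD1 in DMSO_siNT, CHD2 and EP400 in 4OHT_siNT, and CHD9 and CHD6 in 4OHT_siSMARCA4. With annotated exons as the length, the scale of the summed level above, SMARCA4 ranked 5, 3 and 5 and SMARCA2 ranked 14, 16 and 16, so the ranks depended on the length used.

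**Figure D5:**
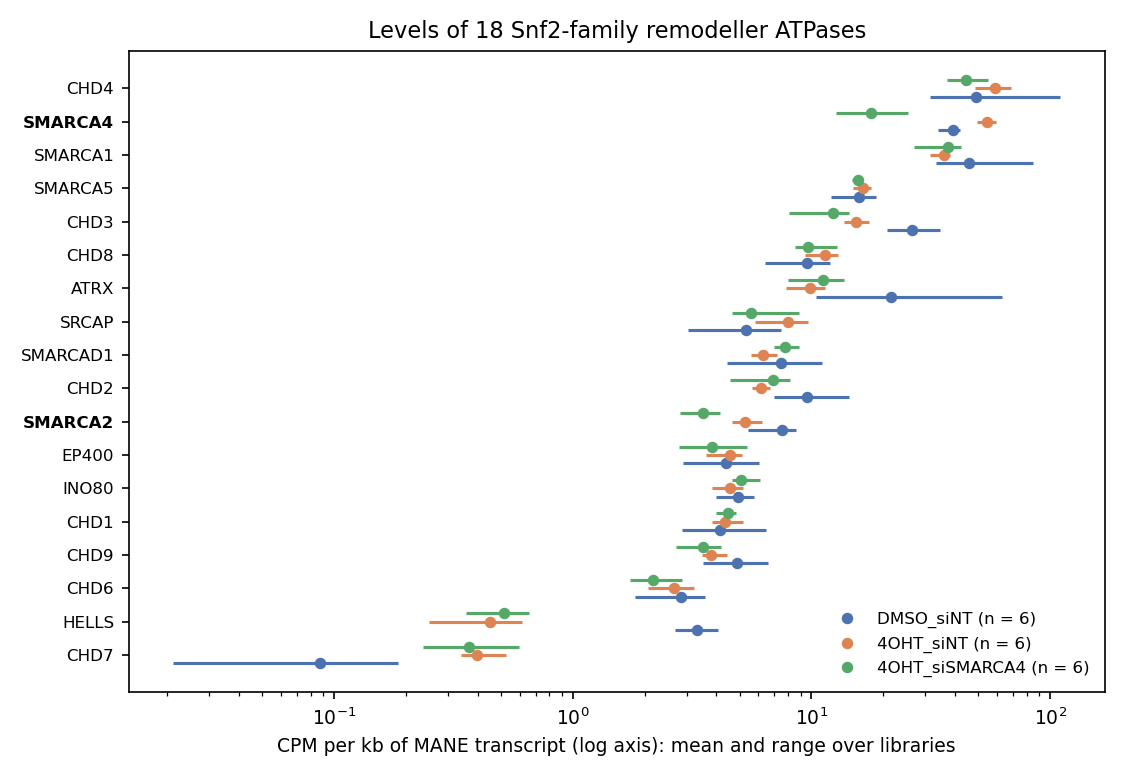
Mean (point) and range over 6 libraries (line) of 18 remodeller ATPase genes in CPM per kb of MANE transcript on a log axis, by group, sorted by the 4OHT_siNT mean. The 4OHT_siSMARCA4 range of SMARCA4 lies clear below both controls, and SMARCA2 steps down from DMSO_siNT through 4OHT_siNT to 4OHT_siSMARCA4.

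The genes whose pattern was most like each member were found by Pearson's r of log2 CPM over the 18 libraries, among the 9314 genes that averaged more than 3 on the log2 CPM scale. The points share groups, so r mainly reads the group pattern and is a description. For SMARCA4 they were SPECC1 (r = 0.93), DSP (0.91), FIBIN (0.90), SERPINF1 (0.89) and SH3BP1 (0.88). SPECC1 averaged 56.4, 62.7 and 40.2 CPM in DMSO_siNT, 4OHT_siNT and 4OHT_siSMARCA4, the order of SMARCA4 with smaller steps. DSP, which encodes the desmosomal protein desmoplakin, averaged 14.99, 16.04 and 5.14 CPM. SMARCA2 itself had r = 0.65 with SMARCA4 over the 18 libraries, at rank 215 of the genes compared, and SMARCC2 was the subunit most like SMARCA4 (r = 0.62). Over the 24 subunits compared the median r was 0.06 and the lowest −0.63 (SS18).

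For SMARCA2 the most alike genes were COL11A1 (r = 0.96), AMOTL1 (0.95), DDR2 (0.95), RBFOX2 (0.95) and CDH11 (0.95). COL11A1 encodes a fibrillar collagen chain, DDR2 a collagen receptor and CDH11 a cadherin of mesenchymal cells. All 5 stepped down through the groups as SMARCA2 did, COL11A1 from 38 to 11.1 and 2.33 CPM and DDR2 from 205 to 134 and 92.55 CPM. Of the listed genes, SMARCC2 (r = 0.88) and CHD3 (r = 0.88) were most like SMARCA2. The median r was 0.22 over the 24 subunits compared, with SS18 lowest (−0.71), and 0.31 over the 14 other ATPases, with CHD1 lowest (−0.13).

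With group means subtracted, which leaves the spread among libraries of a group, other genes came first. For SMARCA4 they were SH3BP1 (r = 0.80), OSBPL6 (0.79), SLC27A1 (0.78), MICALL2 (0.77) and GDNF (0.77). For SMARCA2 they were APC (r = 0.88), USP9X (0.88), ZNF664 (0.87), TUG1 (0.86) and THSD4 (0.86). The median r of SMARCA2 was 0.58 with the 14 other remodeller ATPases compared and 0.21 with the 24 subunits. For SMARCA4 these medians were 0.13 and −0.03. The median over all genes was not taken, so whether 0.58 is particular to the ATPases was not tested. The paralogs had r = 0.14 with each other on this scale. SH3BP1 was the gene that stood among the first 5 for SMARCA4 on both scales, and no gene did so for SMARCA2.

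RNA of ESR1 and HRAS reads the transcript of the fusion together with any from the cells' own genes, and does not measure RAS activity. ESR1 was at 980 ± 481 CPM in DMSO_siNT, 2538 ± 505 in 4OHT_siNT and 2203 ± 281 in 4OHT_siSMARCA4, and HRAS at 2110 ± 855, 4813 ± 741 and 4315 ± 572 CPM (SD, n = 6). Both rose with senescence (log2 change 1.37, edgeR adjusted p = 0.0172, and 1.19, edgeR adjusted p = 0.00146). DMSO_siNT 4-2V lowered the growing means, with 29.5 CPM of ESR1 and 436.5 of HRAS, where the next lowest growing libraries had 1034 and 2165. It therefore enlarged both rises, which were not fitted without it. Between the 4OHT groups neither was called (edgeR adjusted p = 0.831 for ESR1 and 0.778 for HRAS). In DMSO_siNT 4-2V, with 29.5 CPM of ESR1, SMARCA4 was 215 CPM, inside the range of the other growing libraries, and SMARCA2 was 38.7 CPM, inside it as well.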

How the data were processed

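RNA was sequenced from IMR90 ER:RAS fibroblasts. Per the labels and the study's methods, the authors used poly(A) selection, a directional kit, single-end reads of 72 bases, STAR (version 2.7.8a in the submitters' processing notes, which also name DESeq2 1.36.0) and the hg38 build. They deposited raw counts per gene for 36 columns, 2 lanes for each of 18 libraries. The counting tool and whether it used strand are not given in the sources used here.

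Lanes were summed per library. Of 29 labelled samples, 17 matched a library by title and the others were not analysed here. The unlabelled library took its group from its column name. Genes were filtered with filterByExpr (13136 of 28266 kept, holding 99.91% of counts), scaled by TMM and tested with edgeR 4.0.16 (R 4.3.3, limma 3.58.1), by quasi-likelihood with 1 mean per group over all 18 libraries, Benjamini-Hochberg adjustment over all genes tested and a threshold of 0.05. The same test was fitted with a mean per group and siRNA number, and per group and set letter. DESeq2 1.42.0 was an alternative. Other alternatives were the scaling, the filter, a fold threshold, the libraries fitted, the set label as a block, and leaving out each library. CPM levels are TMM scaled. Ratios and summed levels were compared by exact two-sided permutation tests written in Python 3.11.15 with numpy 2.4.6. Correlation coefficients, Poisson intervals and binomial tests used scipy 1.17.1. Scripts were tested on simulated data.

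Named genes were SMARCA4 and SMARCA2, the 4 called list genes of largest log2 change in each comparison, any list gene that a count of 5 or fewer needs, the 5 genes with the highest r for each member on each scale, and ESR1 and HRAS. The members, lists and tests were chosen with earlier results of these data known. Lane pairs of a library agreed to within a chi-square per degree of freedom of 1.19 to 1.27, whereas the 45 pairs of libraries within groups differed by 2.33 to 315, more than lanes of 1 library differ, and each was counted as 1 sample. The pairs with DMSO_siNT 4-2V ran from 208.9 to 315, and all others were at most 52.49.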

Additional observations from a re-analysis of the deposited data

Results flagged for a closer look

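In each group of 6 libraries, the gap between an extreme library and its nearest neighbour was divided by the range of the group, and a ratio above Dixon's 95% critical value for 6 samples marked a library as far from the others. Of 24 sets of 6 values, 5 were marked, where chance marks about 1 in 20, or 1.2. SMARCA4, SMARCA2, their ratio and their sum were marked in no group. In DMSO_siNT, library 4-2V was marked as lowest for ESR1 (gap ratio 0.937) and for HRAS (0.853), the parts of the fusion, and as highest for the number of genes detected (0.816). In 4OHT_siSMARCA4, library 4-3V was marked as lowest for HRAS (0.671) and library 4-2V as highest for total counts (0.786).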

How the results depend on the processing

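SMARCA4 and SMARCA2 kept their direction in all 30 alternatives of each comparison between groups. The log2 changes ranged from 0.39 to 0.52 for SMARCA4 and from −0.59 to −0.38 for SMARCA2 with senescence, from −1.95 to −1.53 and from −0.72 to −0.53 with knockdown, and from −1.54 to −1.05 and from −1.18 to −0.97 between depleted and growing cells. Calls were lost with the libraries of siRNA 4 alone, for SMARCA4 with senescence (0.52, edgeR adjusted p = 0.116) and knockdown (−1.66, edgeR adjusted p = 0.0925) and for SMARCA2 with senescence (−0.38, edgeR adjusted p = 0.165) and knockdown (−0.59, edgeR adjusted p = 0.359). This fit has fewer libraries.

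The set labels did not pair the libraries: 15 pairs with the same label had deviations from group means correlated at −0.286 to 0.299, and 5 were over 0.1. With the labels as a replicate block, SMARCA2 was not called with senescence (−0.43, edgeR adjusted p = 0.0675) or knockdown (−0.58, edgeR adjusted p = 0.153). Under the block, 5 SWI/SNF subunits and 4356 genes were called with senescence, and 0 and 236 with knockdown. The unlabelled library was left out of that fit. Without it and without the block, SMARCA2 was called in both (−0.50, edgeR adjusted p = 0.00244, and −0.62, edgeR adjusted p = 0.00706).

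With DESeq2, SMARCA2 passed for siSMARCA4_4 against its siNT (−0.59, adjusted p = 0.0238), as did SMARCA4 for V against VM after knockdown (0.61, adjusted p = 0.0348), which was also called without DMSO_siNT 4-2V (0.61). Without the unlabelled library, SMARCA2 was not called for siSMARCA4_2 (−0.66, edgeR adjusted p = 0.0811), and the SMARCA4 difference between the siRNAs turned to 0.073. The correlation of the paralogs in DMSO_siNT turned to 0.23 under total-count scaling, and in 4OHT_siNT it ran from −0.67 to 0.19 when 1 library was left out. The log2 ratio between depleted and growing cells ran from −0.19 to 0.0089 in the same way and was −0.41 in VM sets. The summed level in VM sets differed by −1.48 for that pair (exact permutation p = 0.1). ATRX turned to 0.0796 for that pair with siRNA 2 alone. The cause was not tested for any of these.

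Counts of calls moved most. With senescence, a fold over 2 left 2 SWI/SNF subunits, 3 other ATPases and 2822 genes, and siRNA 4 alone left 7 subunits. With knockdown, subunits called were 0 with a fold over 2, with no filter or with siRNA 4 alone, 1 under RLE scaling or with 10 counts in every library, 4 with siRNA 2 alone, 5 with only the groups compared or without both DMSO_siNT 4-2V and the unlabelled library, 6 in VM sets, and 0 to 5 when 1 library was left out. Other ATPases called were 3 in VM sets or with only the groups compared, 1 with siRNA 2 alone, 2 without both libraries and 0 to 3 when 1 was left out. Genes called were 461 with a fold over 2, 2858 in VM sets, 3405 with only the groups compared, 3429 with siRNA 2, 4 with siRNA 4, 2670 without both libraries, and 923 to 3269 when 1 was left out. Between depleted and growing cells, a fold over 2 left 2 subunits, 3 other ATPases and 2820 genes, siRNA 2 alone gave 14 subunits and siRNA 4 alone 4119 genes. SMARCA2, with 188 to 692 counts a library, has the wider counting error of the paralogs.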

Other observations

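Each library was sequenced in 2 lanes, so the lanes give a repeat count of the same RNA. Of 36 exact binomial tests of lane counts against lane totals, SMARCA2 in the unlabelled library passed after Benjamini-Hochberg adjustment, with 166 counts in the first lane and 114 in the second (exact p = 0.000633, adjusted p = 0.0228). SMARCA4 in the same library had 474 and 501 counts (exact p = 0.823). Results without that library are given above.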
